A study of Mus musculus with 6 samples.

Results

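The genes that copy the genome and mend its breaks were examined in LSK-SLAM cells, a marrow fraction enriched for hematopoietic stem cells (HSC). The members were the probes on an Agilent whole mouse array whose gene name matched a fixed list of name patterns (Mcm, Rfc, Rpa1 to Rpa3, the replicative polymerases, Rad, Fanc, Xrcc, Brca, Msh, Mlh and Ercc families) or was Pcna, Atm, Atr, Chek1, Chek2, Nbn, Mre11a, Prkdc, Lig1, Lig3 or Lig4. There were 112 such probes of 89 gene names on 148 spots, of 39429 probes, 31791 gene names and 43020 spots in all. The rule used names and no measured value, but it was set with earlier results of these data known. The patterns also took in 3 genes by name alone, Ercc6l, Rad54l2 and Xrcc6bp1 (Atp23 in RefSeq). They form a group of their own below but stay in the counts over all members.

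Single-colour hybridisations of their RNA gave 6 arrays, 3 labelled 2T-WT and 3 labelled 2T-p190-B-/-. p190-B, the product of Arhgap5, turns off small GTPases, and the mutant carried a constitutive deletion of it. Fetal liver cells of wild-type or p190-B-/- littermates, carrying CD45.2, went together with competitor marrow into lethally irradiated CD45.1 hosts, and the marrow of these hosts was later passed to irradiated secondary (2T) recipients, from which Lin- c-Kit+ Sca-1+ CD150+ CD48- cells were sorted. All 6 arrays thus come from recipients of the second of 2 serial transplants, and the labels name no donor marker in the sort. The RNA was amplified before labelling, and the sources do not settle whether an array holds cells of 1 recipient or of several, so p-values measure the spread between these arrays. In sorted bulk RNA, fewer cells of a type and less RNA per cell cannot be told apart.

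DNA replication starts when the MCM proteins are loaded as a ring around DNA and then unwind it, so that polymerases, held by a sliding clamp that a clamp loader places, can copy the strands. Breaks and wrong bases are handled by separate repair routes, and checkpoint kinases slow the cell cycle while damage persists. Long-term HSC are mostly quiescent, and many replication genes are known targets of E2F transcription factors, which act as cells enter S phase.

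E2F-type letters were common in these promoters. Of the member genes, 72 had promoters in the RefSeq table (GRCm38.p6), 84 in all, each reaching from 250 bases before the gene start to 50 bases after it. Both strands were searched for TTTCCCGC, TTTGGCGC, TTTCGCGC and TTTGCCGC, which can overlap each other, and 22 of the 84 promoters (26.2%) held one of them, against 2.26% of all 32851 promoters. Among the promoters of the MCM helicase subunits the share was 66.7%. The box CCAAT was found in 56% of member promoters and 37.4% of all. TTTGAA or TTCGAA, the letters of CHR elements, were found in 10.7% and 19.2%. These matches describe letters only. Windows of 30 bases are given for the MCM genes, whose array values follow, on the strand of the gene. Capitals mark every base that belongs to a match on either strand, and the longer runs in Mcm5 and Mcm6 are overlapping matches.
Mcm3, chr1:20820275-20820304, minus strand: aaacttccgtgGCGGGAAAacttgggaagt
Mcm5, chr8:75109345-75109374, plus strand: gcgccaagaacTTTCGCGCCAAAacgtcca
Mcm6, chr1:128359797-128359826, minus strand: tggcgtatgctTTTGGCGCGAAAagtgcgt
Mcm6, chr1:128359734-128359763, minus strand: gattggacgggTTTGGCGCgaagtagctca
Mcm7, chr5:138171849-138171878, minus strand: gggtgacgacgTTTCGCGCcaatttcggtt

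Each array value below is the log2 of a probe's processed signal divided by the 75th percentile of its array, so that 0 is that percentile and 1 unit is a 2-fold step. The 75th percentile itself was 53.9 to 227.4 in 2T-WT and 252.3 to 385.2 in 2T-p190-B-/-, and these ranges do not overlap, so every difference below carries that step. A probe counts as detected on an array where the scanner software marked at least 50% of its spots kept there as well above background. Undetected probes lay at a floor that differed by array: the 30 member probes detected nowhere read a median of -4.65, -6.17 and -4.42 on 2T-WT 1, 2 and 3, and -7.02, -5.08 and -6.02 on 2T-p190-B-/- 1, 2 and 3. The 2T-WT 1 array was alone on its slide, as was 2T-p190-B-/- 3, while the other 4 shared a slide. Of the markers of the sort, Kit and Ly6a were detected but Slamf1 (CD150) and Procr were on no array, and Cd48, the gene of a surface protein sorted against, was detected on all 6. The B lymphocyte gene Cd79a read 9.47 on 2T-WT 3 and between -4.89 and -1.65 on the other arrays, and the summed linear signal of 10 B lymphocyte markers, in multiples of the 75th percentile, was 726.9 there against 5.44 to 8.04 elsewhere. What part this signal has in the member values of 2T-WT 3 was not tested.

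A smaller share of replication and repair probes was detected than of all probes. Of the 112 probes, 30 (26.8%) were detected on no array, against 16.8% of all probes, and 30 (26.8%) on all 6, against 34.9%. Per array, 40.2%, 55.4% and 42% of member probes were detected in 2T-WT 1, 2 and 3, and 60.7%, 40.2% and 56.2% in 2T-p190-B-/- 1, 2 and 3. The shares over all probes were higher on each array, from 48.4% to 73.1%. By gene, 25 of 89 (28.1%) had no detected probe, against 14.1% of all gene names. Among these were Mcm2, Mcm3, Pola2, Pole2 and Rpa2 of the replication fork, and Atr, Rad1, Rad17 and Rad9b of the checkpoint. Further ones were Brca1, Brca2, Mre11a, Nbn, Rad51ap1 and Xrcc3 of homologous recombination, and Lig4, Prkdc and Xrcc4 of end joining. Fanca, Msh6, Ercc3, Ercc5, Ercc6 and Ercc6l, the last matched by name only, were undetected as well. A transcript that these probes miss need not be absent from the cells.

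**Figure D1:**
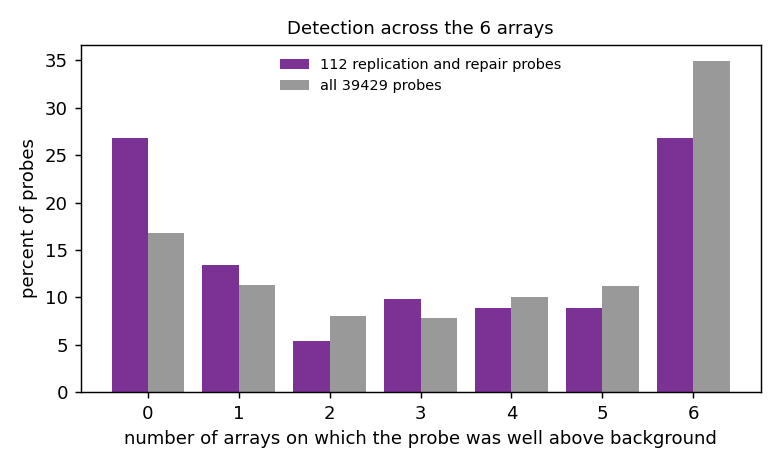
Share of probes (vertical axis, percent) by the number of arrays on which a probe was well above background (horizontal axis), for the 112 replication and repair probes and for all 39429 probes. Member probes are more frequent at 0 arrays (26.8% against 16.8%) and less frequent at 6 (26.8% against 34.9%).

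The base content and the design series of the probes moved with detection. Member probes detected on no array had a median GC content of 36.7%, those on 1 to 5 arrays 40% and those on all 6 arrays 45%, and the medians over all probes on no array and on all 6 were 35% and 45%. Of 16 member probes from the series whose names start with A_52, 8 were on no array, against 7 of 41 from the A_55 series. Over all probes the shares on no array were 27.8% and 13.9% for these series. Their part in the detection of single genes was not tested.

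**Figure D2:**
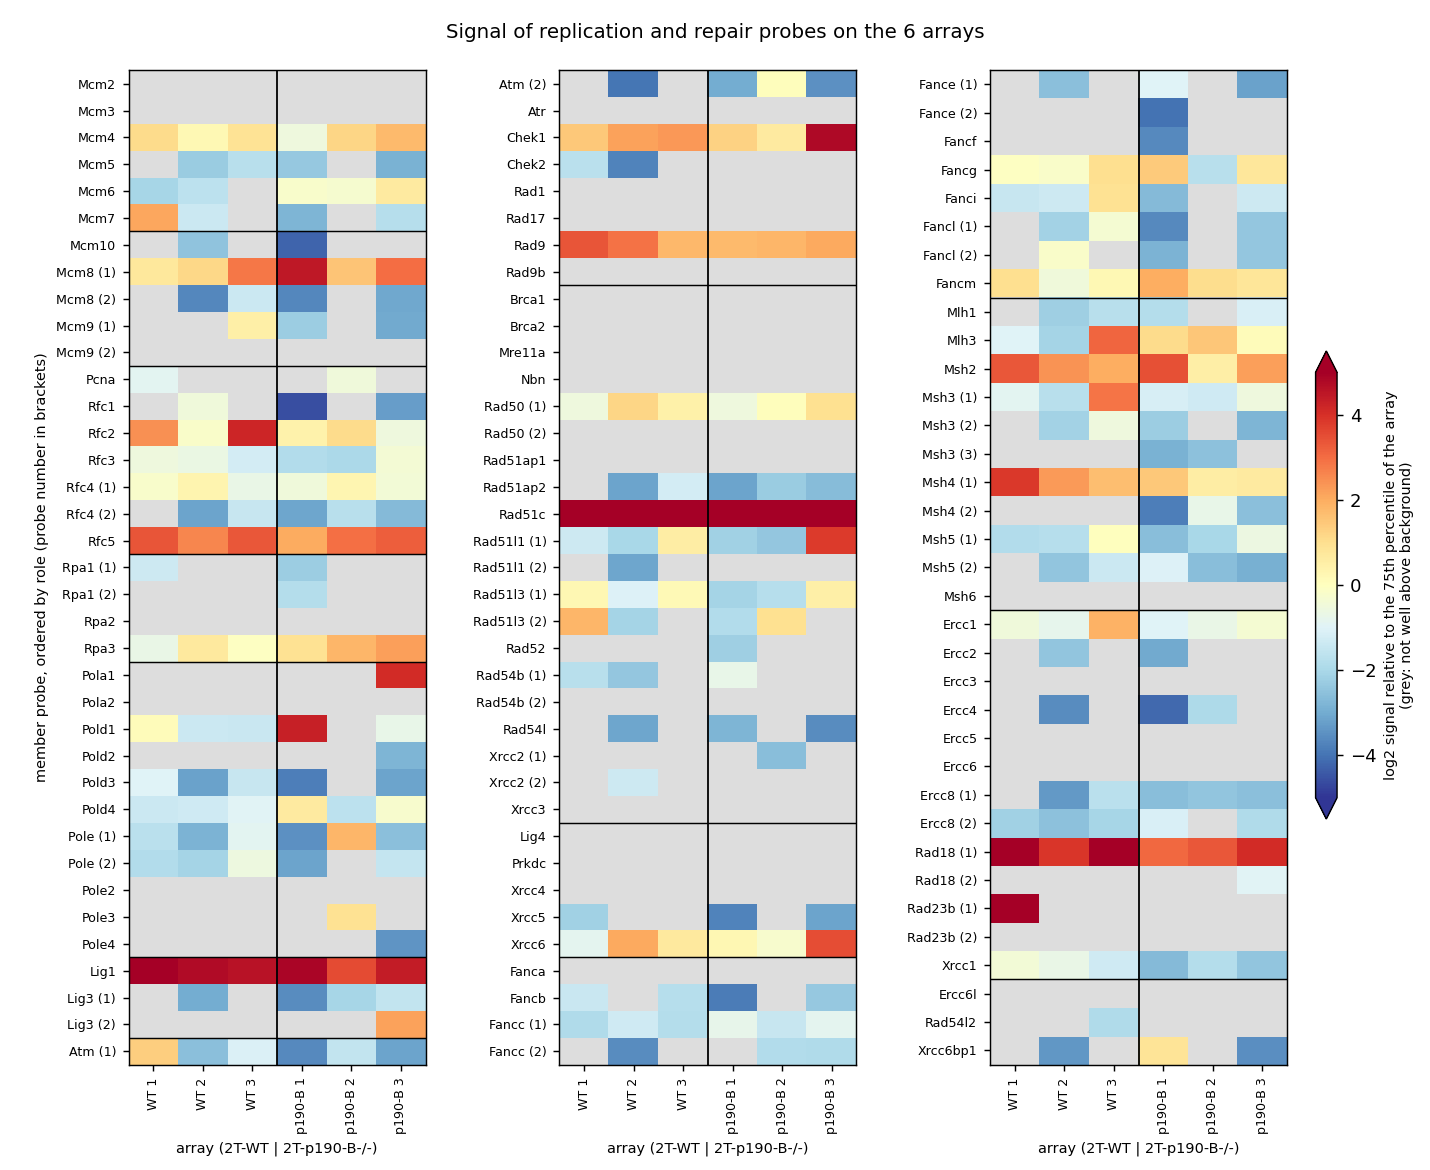
Log2 signal relative to the 75th percentile of the array (colour, from -5 to 5, grey where a probe was not well above background) for 109 member probes in rows, grouped by role with lines between roles, on the 3 2T-WT and 3 2T-p190-B-/- arrays in columns. The 28 whole grey rows are probes detected on no array, and the Rad51c row is above the scale on all 6.

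No member passed the test between genotypes. The 61 probes of 50 genes that were detected on at least 3 arrays were tested with limma among 25127 probes, and 0 had a Benjamini-Hochberg adjusted p under 0.05, as did 0 (0.0%) of all probes tested. The smallest adjusted p from limma among members was 0.638, and over all probes it was 0.0728. At an unadjusted limma p under 0.05 there was 1 member higher in 2T-p190-B-/-, Mcm6, where 3.19% of all probes tested were higher, and 0 lower, where 3.39% of all were lower. In either direction that is 1 of 61 members against 6.58% of all probes tested. By the methods' t-test at a p of 0.05 or less with a 2-fold difference, Mcm6 and Rpa3 were higher (2.31% of all probes) and Xrcc1 was lower (4.11%, or 6.42% of all probes in either direction), with 0 calls after Benjamini-Hochberg adjustment. The arrays of the genotypes did not overlap for 4 of the 61 probes, Mcm6 and Rpa3 on the higher side (4.53% of all probes) and Xrcc1 and 1 probe of Msh4 on the lower side (11.7%), and for either side the share over all probes was 16.3%. With 3 arrays a side, the smallest two-sided p an exact permutation test allows is 0.1. Rpa3, Xrcc1, Rad51c, Rad18 and the genes seen on a single array were singled out after their values were seen.

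The median shift of member genes lay near that of all genes. Each gene was represented by its tested probe of highest mean signal, and the median difference, 2T-p190-B-/- minus 2T-WT, was -0.32 over 50 member genes and -0.35 over all 21679 genes tested. Of the 50 genes, 18 were above 0 and 32 below, where 61.4% of all genes tested were below, and 25 were below the median of all genes. Leaving out 1 array turned the sign of 27 of the 61 probes, 14 of the 23 above 0 and 13 of the 38 below. Differences of 2-fold or more were seen for 7 probes on the higher side and 18 on the lower side, together 41% of the probes tested, against 43.7% of all. The standard error of a member's difference had a median of 0.87 and ranged from 0.66 to 1.65. This standard error, which limma moderates over all probes, was thus similar in size to many of the differences. The SD of a tested member probe between arrays had a median of 0.895 in 2T-WT and 0.805 in 2T-p190-B-/-.

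**Figure D3:**
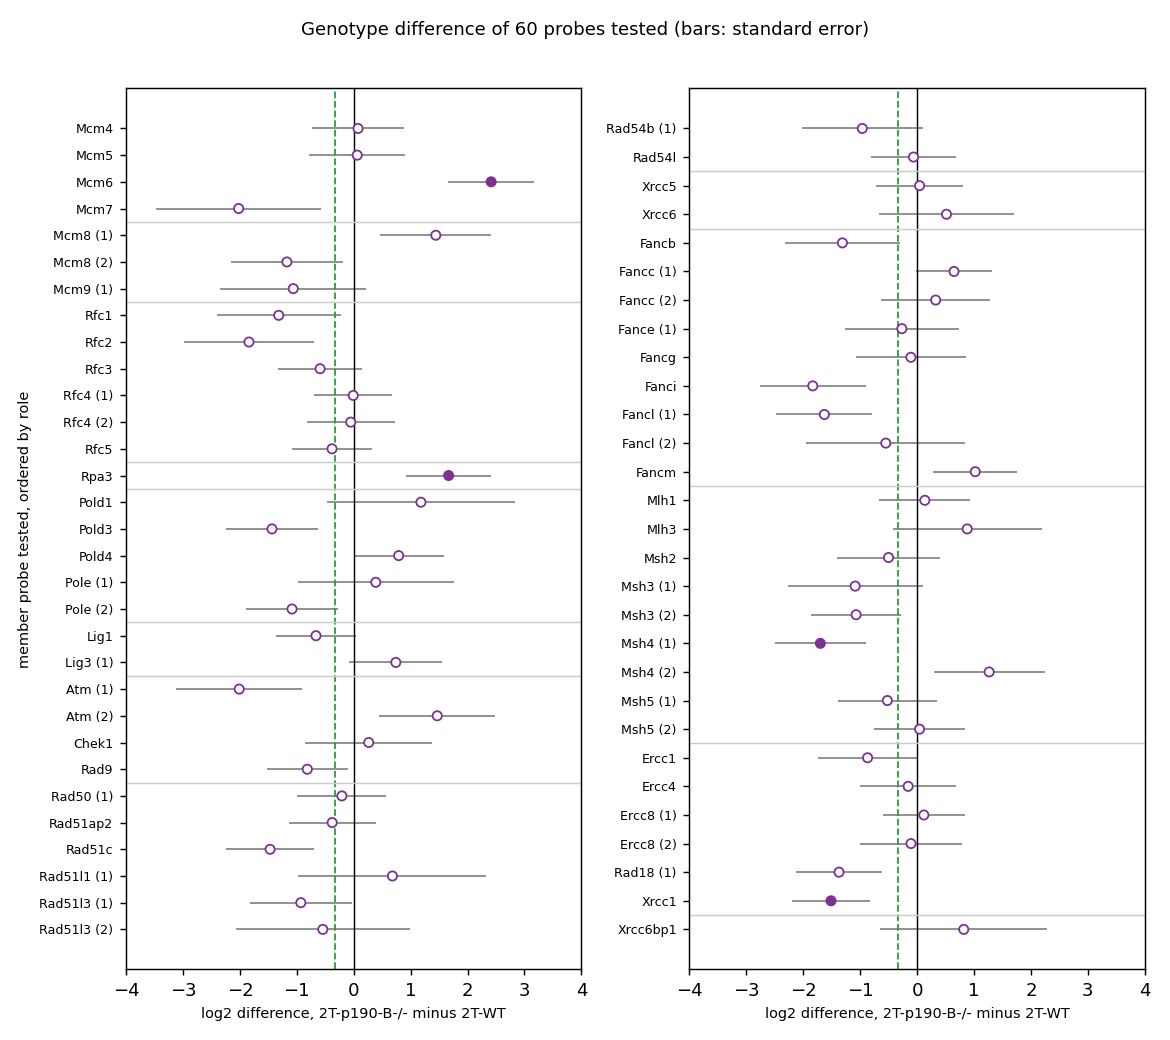
Log2 difference (horizontal axis, 2T-p190-B-/- minus 2T-WT) of 60 member probes tested, with bars for the standard error from limma, ordered by role. Filled points are the 4 probes whose genotypes do not overlap, the dashed line is the median over all probes tested (-0.33), and 37 of the 60 points lie below 0.

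The MCM helicase genes gave no common direction. Its 6 subunits form a single ring, and their genes gave 2 without detection, 3 differences above 0 and 1 below. The Mcm6 probe (chr1:130228178-130228237, mm9, starting at base 2831 of its transcript) begins with the following bases, and no part of it is marked.
Mcm6 probe: ctgtggaaattgctttcttctgttcccagc
Mcm6 read -2.05, -1.66 and -3.37 on 2T-WT 1, 2 and 3, and -0.20, -0.30 and 0.66 on 2T-p190-B-/- 1, 2 and 3. All mutant arrays were above all wild-type arrays, and the lowest value, on 2T-WT 3, was the only one not detected. The difference was 2.41 with a standard error of 0.76 (limma adjusted p = 0.638, 3 arrays per group). It was 2.26 with the slide as a block, 1.91 without 2T-WT 3, 0.78 after normexp background correction and 3.87 with no scaling between arrays.

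Mcm7 was the helicase gene with a difference below 0. It read 2.11, -1.37 and -3.68 on 2T-WT 1, 2 and 3, and -2.80, -4.44 and -1.77 on 2T-p190-B-/- 1, 2 and 3. The wild-type arrays spanned more than the mutant ones and the groups overlapped. The difference was -2.02 with a standard error of 1.45, and -0.48 without 2T-WT 1.

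Mcm4, detected on all arrays, read 1.08, 0.22 and 0.89 in 2T-WT 1 to 3 and -0.51, 1.18 and 1.75 in 2T-p190-B-/- 1 to 3. The mutant arrays held both the lowest and the highest value, and the difference of 0.08 was a small part of its standard error of 0.81. Mcm5 read -4.30, -2.29 and -1.72 in 2T-WT 1 to 3 and -2.36, -2.92 and -2.86 in 2T-p190-B-/- 1 to 3. It was detected on 2 arrays of each genotype, the groups overlapped, and the difference was 0.06 with a standard error of 0.84. The direction for Mcm4 and Mcm5 turned with the slide as a block, to -0.22 and -0.63. Mcm2 and Mcm3 stayed undetected everywhere.

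Of the MCM relatives, Mcm10 was detected on 2 arrays and was not tested. Mcm8 and Mcm9, which form a helicase used in repair, were tested. Mcm9 had a difference of -1.06, fitted without 2T-WT 2, where its spot was an outlier. The Mcm8 probes, 129 bases apart, gave opposite signs under the main processing. The start of each probe shows that they read separate stretches.
Mcm8 probe 1, chr2:132669680-132669739: tatgggcagtgggtctgacttggcttctca
Mcm8 probe 2, chr2:132669551-132669610: gcaggcattcagctaatgcaaaaacagatt
Probe 1 read 0.71, 1.17 and 2.81 in 2T-WT 1 to 3 and 4.49, 1.55 and 2.98 in 2T-p190-B-/- 1 to 3, a difference of 1.44 with a standard error of 0.97. Probe 2 read -3.67 and -1.38 on 2T-WT 2 and 3 and -3.67, -4.36 and -3.07 in 2T-p190-B-/- 1 to 3, a difference of -1.17 with a standard error of 0.98. In neither did the groups separate. The fit of probe 2 left out 2T-WT 1, where the spot was an outlier.

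**Figure D4:**
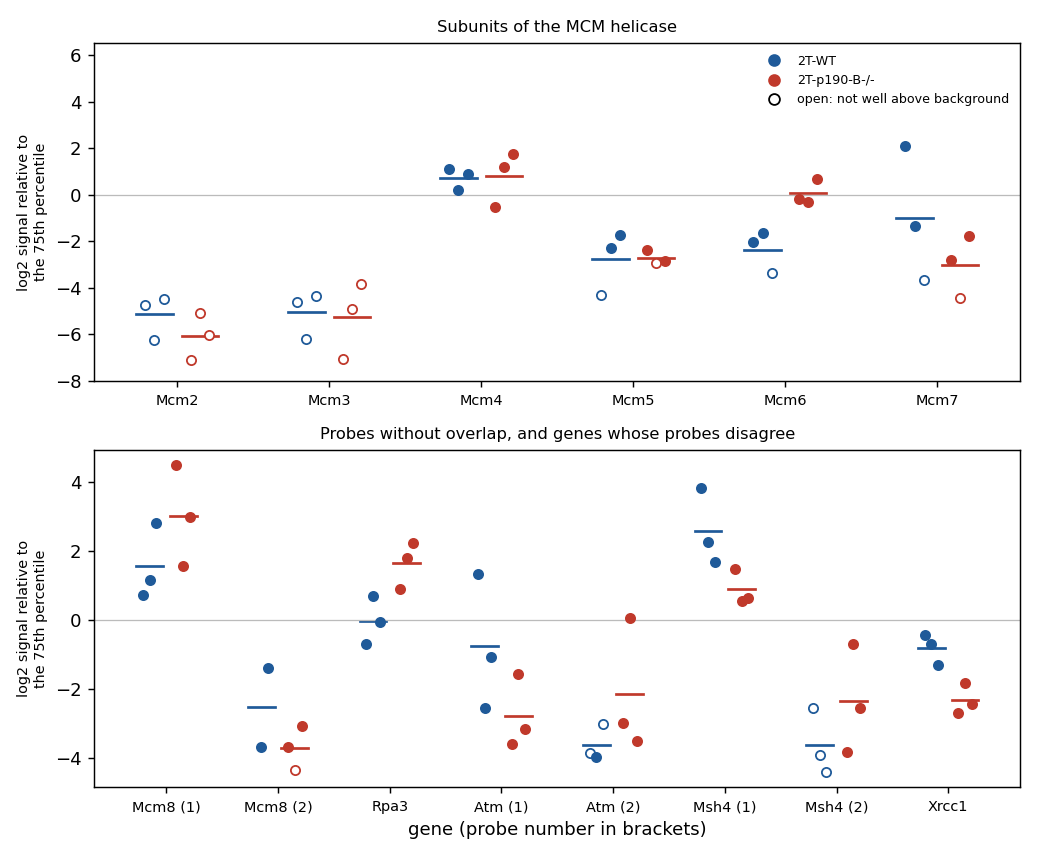
Log2 signal relative to the 75th percentile (vertical axis) on each array for the MCM helicase subunits (upper panel) and for Mcm8, Rpa3, Atm, Msh4 and Xrcc1 by probe (lower panel), with lines at the group means and open points where a probe was not well above background. Mcm6, Rpa3, Xrcc1 and Msh4 probe 1 have no overlap between 2T-WT and 2T-p190-B-/-. The probe pairs of Mcm8 and Atm point in opposite directions under the main processing. Msh4 probe 2 was detected on no 2T-WT array, so its wild-type level is only a bound.

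At the fork, the sliding clamp was seen on single arrays of each genotype. Pcna, the clamp itself, read -0.89 on 2T-WT 1 and -0.47 on 2T-p190-B-/- 2, the arrays where it was detected, and -5.44, -4.04, -6.83 and -5.79 on 2T-WT 2, 2T-WT 3, 2T-p190-B-/- 1 and 2T-p190-B-/- 3. It lay near the floor on those 4 arrays and was not tested. The clamp loader subunits Rfc1 to Rfc5 were all tested, and all 5 differences were below 0, from -1.84 (Rfc2) to -0.01 (Rfc4), with a median of -0.59. Of these, 4 were below the median of all genes, and none of their groups separated.

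Rpa3, a subunit of the protein that coats single-stranded DNA, read -0.70, 0.70 and -0.06 in 2T-WT 1 to 3 and 0.92, 1.80 and 2.22 in 2T-p190-B-/- 1 to 3. Every mutant array was above every wild-type array. The difference was 1.67 with a standard error of 0.74 (limma adjusted p = 0.638), and 1.04 with the slide as a block. Rpa2 was not detected, and the probes of Rpa1 were detected on 2 arrays and on 1, so the other subunits gave no test. The RPA trimer therefore has a tested value for Rpa3 alone.

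Of the 10 genes of polymerases alpha, delta and epsilon, 4 were tested, and 3 of these lay above 0 and 1 below, from -1.44 (Pold3) to 1.18 (Pold1), with a median of 0.59. The Pole probes gave 0.39 and -1.08. Single arrays carried the values of Pold1, which was at -0.84 without 2T-p190-B-/- 1, and of the first Pole probe, at -1.23 without 2T-p190-B-/- 2. Pola1, the catalytic subunit of polymerase alpha, which starts each strand, read 4.07 on 2T-p190-B-/- 3 and between -7.04 and -4.43 on the others, where it was not detected. Pole3 read 0.91 on 2T-p190-B-/- 2 and at most -4.31 elsewhere. The DNA ligases gave differences of -0.66 (Lig1, detected on all arrays) and 0.74 (Lig3).

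Signals on a single array recurred among the members. A probe was counted here if it was detected on 1 array and read at least 16-fold above the next array. Such probes were Rad23b (5.35 on 2T-WT 1, 648-fold), Pola1 (361-fold), the second probe of Lig3 (2.15 on 2T-p190-B-/- 3, 97.2-fold) and Pole3 (37.3-fold), 4 of 112 probes (3.57%) against 746 of all 39429 (1.89%). Rad52, a recombination mediator with 10 spots per array, counted as detected on 2T-p190-B-/- 1 alone, at -2.21, with an SD of 0.07 between its spots. All 9 of its spots kept on that array were well above background, as were 3 of 9 on 2T-p190-B-/- 3 (mean -3.82) and 0 on the other arrays.

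Among checkpoint genes, 3 were tested. Atm, the kinase that answers double-strand breaks, had probes with opposite signs under the main processing, 10296 bases apart in the genome. Probe 1 and probe 2 begin as follows.
Atm probe 1, chr9:53245871-53245930: ttgaaaggtgaaaaagactgagttagaaaa
Atm probe 2, chr9:53256167-53256226: gaagacggtgcacatagaagatacaggcca
Probe 1 read 1.35, -2.54 and -1.07 in 2T-WT 1 to 3 and -3.60, -1.55 and -3.16 in 2T-p190-B-/- 1 to 3, a difference of -2.01 (limma adjusted p = 0.638). Probe 2, printed on 10 spots, read -3.84, -3.97 and -3.01 in 2T-WT 1 to 3 and -2.99, 0.05 and -3.49 in 2T-p190-B-/- 1 to 3, a difference of 1.47 with a standard error of 1.02. The wild-type mean of probe 1 was raised by 2T-WT 1, and the mutant mean of probe 2 by 2T-p190-B-/- 2, without which the differences were -0.96 and 0.37. With the slide as a block probe 1 was at -0.77. The probes differed by 3.48 in their difference.

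Chek1, the kinase that acts downstream of Atr, read 1.45, 2.17 and 2.32 in 2T-WT 1 to 3 and 1.28, 0.65 and 4.80 in 2T-p190-B-/- 1 to 3. The mutant arrays held the extremes, and the difference of 0.26 (standard error 1.12) became -1.01 without 2T-p190-B-/- 3. Rad9 (Rad9a in RefSeq), part of the ring-shaped damage clamp, had a difference of -0.82. Its partners Rad1 and Rad17, the loader of that clamp, were on no array, as was Atr itself. Chek2 was detected on 2 wild-type arrays and was not tested.

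Homologous recombination, which copies an intact strand to mend a break, had 16 genes of which 8 were tested. Of these, 1 was above 0 (Rad51l1, 0.68) and 7 were below, with a median of -0.65 and a lowest value of -1.47, and 5 of the 8 were below the median of all genes. Rad51l1 was at -1.35 without 2T-p190-B-/- 3. The lowest value came from Rad51c, a recombination gene, and its probe holds a run of alternating T and G. The probe of Rad18, a ubiquitin ligase of damage bypass, holds a run of alternating A and C. These stretches are shown with the run in capitals, since it sets these probes apart from the other 110.
Rad51c probe, bases 1 to 30, chr11:87190997-87191056: TGTGTGTGTGTGTGTGgtggtggtggtgtt
Rad18 probe 1, bases 31 to 60, chr6:112570622-112570681: acaacaacaaaacaaACACACACACACACA
Rad51c read 11.49, 10.48 and 12.46 in 2T-WT 1 to 3 and 9.53, 9.91 and 10.59 in 2T-p190-B-/- 1 to 3. Rad18 probe 1 read 5.01, 3.88 and 5.72 in 2T-WT 1 to 3 and 3.08, 3.34 and 4.07 in 2T-p190-B-/- 1 to 3. In both, 2T-WT 3 was highest and 2T-p190-B-/- 1 lowest, and only 2T-WT 2 and 2T-p190-B-/- 3 overlapped.

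Probes with such runs behaved alike across the array. On the whole array 239 probes held a CA or TG run of at least 10 bases, and 99.6% of them were detected on all 6 arrays, against 34.5% of the other 39190. The median of the 236 such probes outside the members that were tested was 10.2, 9.26 and 11.48 on 2T-WT 1, 2 and 3, and 8.51, 8.72 and 9.35 on 2T-p190-B-/- 1, 2 and 3, in the same order of arrays as Rad51c and, but for 2T-WT 2 with 2T-p190-B-/- 3, with each genotype apart. Of these 236 probes 232 (98.3%) had a difference below 0, with a median of -1.43, next to -1.47 for Rad51c and -1.37 for Rad18. Before scaling, their median log2 signal lay between 17.04 and 17.33 on all 6 arrays, and the differences of Rad51c and Rad18 were -0.02 and 0.078. With quantile normalization Rad51c was at -0.05 and Rad18 at -0.66. The second probe of Rad18, without a run, was detected on 2T-p190-B-/- 3 only. What part the run has in these signals was not tested.

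**Figure D5:**
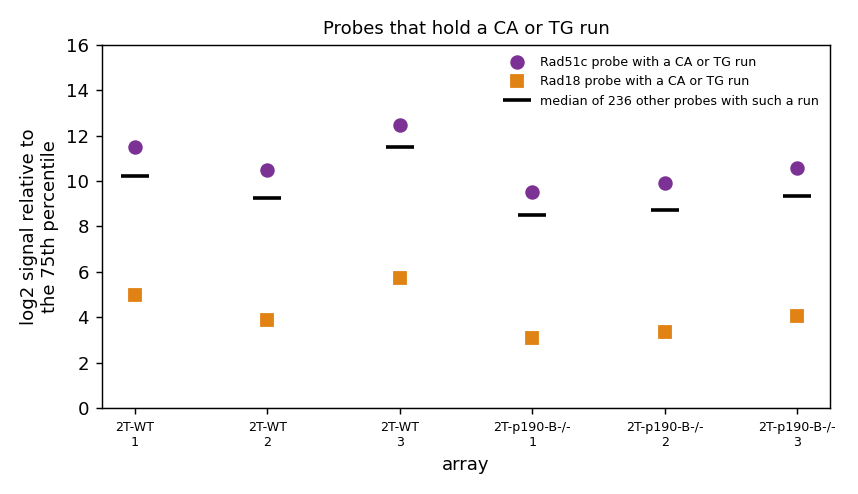
Log2 signal relative to the 75th percentile (vertical axis) on each array for the Rad51c probe and Rad18 probe 1, which hold a CA or TG run, with bars for the median of 236 other probes that hold one. The members follow the median from array to array, highest on 2T-WT 3 (12.46, 5.72 and 11.48) and lowest on 2T-p190-B-/- 1.

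End joining, which rejoins broken ends directly, had 5 genes. Xrcc5 and Xrcc6, the Ku subunits that bind the ends, had differences of 0.04 and 0.52, the latter -0.65 without 2T-p190-B-/- 3, and Prkdc, the kinase they recruit, Lig4 and Xrcc4 were not detected. Prkdc was printed on 10 spots per array, none of them well above background. Of the 9 Fanconi genes, which act on crosslinks between strands, 7 were tested with 2 above 0 and 5 below, from -1.83 (Fanci) to 1.02 (Fancm). The median was -0.27, near that of all genes. The second probe of Fancl was fitted on 4 values.

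Mismatch repair removes wrongly paired bases. Its group was formed here by the Msh and Mlh names, so not every gene in it need act in that route. It had 7 genes, of which 6 were tested, 2 above 0 and 4 below. Msh4, which acts in meiosis, had probes with opposite signs under the main processing, and probe 1 was the one without overlap. Each probe begins as follows.
Msh4 probe 1, chr3:153535231-153535290: acggtgtccatgctggatatgctgctgtcg
Msh4 probe 2, chr3:153520459-153520518: aaactctcagttggagccagacaggttacg
Probe 1 read 3.83, 2.27 and 1.68 in 2T-WT 1 to 3 and 1.48, 0.55 and 0.65 in 2T-p190-B-/- 1 to 3, all mutant arrays below all wild-type arrays. Its difference was -1.70 with a standard error of 0.80 (limma adjusted p = 0.638), -0.96 with the slide as a block and -0.25 with no scaling between arrays. Probe 2 read -2.55, -3.90 and -4.40 in 2T-WT 1 to 3 and -3.81, -0.71 and -2.54 in 2T-p190-B-/- 1 to 3. It was the only member probe detected on all 2T-p190-B-/- arrays and no 2T-WT array, as were 0.743% of all probes, while 0.0558% showed the reverse. It entered the test through the mutant arrays alone, so its p-value is not used and its wild-type level is a bound. That bound takes the lowest signals detected on each 2T-WT array, or the probe's own reading where that was higher. Under the main processing the mutant mean was at least 1.46-fold above it (measured means -2.35 in mutant and -3.62 in wild type). This minimum does not hold under each processing: with normexp background correction the difference was -0.51. Its groups overlapped.

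Excision repair and damage bypass had 11 genes. All 5 tested were below 0 by their probe of highest mean signal, with a median of -0.87. Of these, 3 were below the median of all genes. Xrcc1, a scaffold of single-strand break repair, read -0.42, -0.70 and -1.29 in 2T-WT 1 to 3 and -2.69, -1.81 and -2.44 in 2T-p190-B-/- 1 to 3. Every mutant array was below every wild-type array, and its SD within each genotype, 0.44 and 0.45, was lower than for most members. The difference was -1.51 with a standard error of 0.68 (limma adjusted p = 0.638), and -1.26 with the slide as a block. With no scaling between arrays it was -0.06. The others tested in this group, Rad18 aside, were Ercc1 (-0.87), Ercc4 (-0.16) and Ercc8 (-0.11), and the last pair turned sign without 1 array. The other tested probe of Ercc8 was at 0.12. Of the genes matched by name only, Xrcc6bp1 was tested, at 0.82, and at -0.89 without 2T-p190-B-/- 1.

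Probes of the same gene did not always share the sign of their difference. Of 22 genes with several probes, 11 had 2 or more tested. Under the main processing the probes had opposite signs in 6 of these (Atm, Ercc8, Mcm8, Msh4, Msh5 and Pole). In Atm and Mcm8 they differed by 3.48 and 2.62 on the log2 scale. Msh4 is counted by a second probe that entered the test through the mutant arrays alone and has only a bound. With normexp the probes of Atm (-1.17 and -0.29) and of Msh4 (-0.84 and -0.51) shared a sign. The Mcm8 probes did so with no scaling between arrays (2.89 and 0.33). In Ercc8 and Msh5 the probes differed by 0.23 and 0.57 under the main processing, less than the median standard error of a member's difference (0.87). The share of such pairs over all genes was not counted. For 4 genes, among them Rad18, Rad50 and Rad51l1 (Rad51b in RefSeq), 1 probe was detected on all 6 arrays and another on 1 or none. A gene's value here is that of the probe read, and whether probes differed beyond the spread between arrays was not tested.

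Other genes of the same pathways gave a similar picture. Of 35 further replication fork genes on the array 17 were tested, 5 above 0 and 12 below, with a median of -0.29, 8 of them under the all-gene median, 1 without overlap and none at an unadjusted limma p under 0.05. Of 58 further repair genes 36 were tested, 9 above 0 and 27 below, and 19 lay under the all-gene median (list median -0.55). At an unadjusted limma p under 0.05 there were 3 of these 36, and 5 had no overlap, against 6.58% and 16.3% of all probes. The 3 were Recql, a helicase, Polh, a polymerase that copies past damaged bases, and Smug1, a uracil glycosylase, each with a limma adjusted p of 0.638. Recql was detected on all mutant arrays, between -0.42 and 0.20, and on 2T-WT 1 at -0.22, and was not detected on 2T-WT 2 and 3. Polh was detected on 3 arrays, 2 of them wild type, and Smug1 on 5, with lower readings in all mutant arrays than in all wild-type arrays for both. Of 17 proliferation genes 14 were tested, 5 above 0 and 9 below, 8 of them below the median of all genes, and 3 had no overlap. Kif11, a motor of the mitotic spindle, was 1 of the 3 and read -0.86, 3.48 and 1.37 in 2T-WT 1 to 3 and -2.42, -2.64 and -1.31 in 2T-p190-B-/- 1 to 3 (difference -3.46, limma adjusted p = 0.638). In limma the adjusted p of each gene in these lists stayed above 0.05.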

How the data were processed

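RNA of LSK-SLAM cells was measured on 6 single-colour Agilent arrays, grouped by the sample labels. The authors deposited Feature Extraction 10.5.1.1 output, with spot intensity on a linear scale (mean, local background and a background-corrected processed signal, not scaled between arrays), and a second table in which that processed signal is divided by 1 number per array near its median. Probe names and mm9 coordinates come from the files. Here control and outlier spots were left out, the log2 of the 75th percentile was subtracted, and spots of a probe were averaged. Probes detected on at least 3 arrays with 2 values per group were tested with limma 3.58.1 (R 4.3.3), adjusted by Benjamini-Hochberg over 25127 probes. The t-test of the study's methods was applied to these values as well. The fit was tested on simulated data. RefSeq (GRCm38.p6) gave promoters and current symbols: 106 member probes matched by accession, 5 by symbol and 1 by synonym. Its coordinates were used for promoters only.

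Replicate numbers were not used as pairs in the main fit. The paper states that cells came from 3 independent secondary recipients per group, on 3 independent occasions. Deviations of same-numbered arrays from their group means correlated at 0.00896, 0.0161 and 0.0863. For differently numbered arrays the correlations ran from -0.0752 to 0.0673. With 3 arrays per group these values cannot settle whether arrays were sorted in pairs. Named in full were members at an unadjusted limma p under 0.05, Mcm2 to Mcm7, Pcna, Atm, Atr, Chek1, Brca1, Brca2, Prkdc, members detected on all arrays of 1 genotype and none of the other, and genes whose probes differed by 2 or more. The members and lists were chosen with earlier results of these data known. With 3 arrays per group, array number sets the precision. Where in a transcript's exons or UTRs the probes lie was not analysed here. The values of 2 member genes and 1 marker gene are not reported here and are left out of the plots, but they stay in the fits and counts.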

Additional observations from a re-analysis of the deposited data

How the results depend on the processing

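The count of members with an adjusted p under 0.05 was 0 under every alternative run. The count at an unadjusted limma p under 0.05, 1 in the main analysis, was 3 with quantile normalization, 7 with normexp background correction, 2 without the filter on dim probes, 3 with only probes detected on all 6 arrays, 2 with the authors' value table, 2 with the slide as a block, 2 with an intensity trend and robust variance, and 10 with no scaling between arrays. The shares over all probes moved too: with normexp 11.5% of members stood against 14.4% of all probes, and with no scaling 16.4% against 13.5%. The count was 3 by the methods' t-test with a 2-fold difference and 0 by that test after adjustment. Leaving out 1 array gave 1 to 7 (7 without 2T-WT 2, 11.9% against 9.74% of all, and 5 without 2T-WT 3, 8.62% against 5.98%). The count of probes without overlap, 4, was 14 with normexp, 10 without the filter, 15 with no scaling and 10 to 17 with 1 array left out, where fewer arrays separate more easily. The median difference of member genes, -0.32, lay between -0.61 and -0.16 with 1 array left out, and was -0.06 with quantile normalization and 1.13 with no scaling, 0.03 above the median of all genes under that setting. With the replicate number as a block, 2 members had an unadjusted p under 0.05, Mcm6 stayed at 2.41, and no call at the adjusted threshold changed.

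Of 15 single differences followed, 8 kept their direction under every alternative that could be computed. Mcm4 was -0.22 with the slide as a block and between -0.40 and 0.73 with 1 array left out. Mcm5 was -0.98 with normexp, -0.63 with the slide as a block and between -0.71 and 0.58 with 1 array left out. Chek1 was -1.28 with the slide as a block and between -1.01 and 1.06 with 1 array left out. With normexp, Atm probe 2 was -0.29 and Msh4 probe 2 was -0.51. With no scaling, Mcm8 probe 2 was 0.33 and Rad18 was 0.078. The causes were not tested. The slide block compares genotypes within the shared slide of 2 arrays each. The setting without scaling, the centring of differences on the median of all probes (31 members above it against 23 above 0) and the restriction of member genes to those detected on all 6 arrays (median -0.44) were added after seeing the data. Dim probes limit the rest: 61 of 112 members could be tested.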
